A study of Mus musculus with 6 samples.

Results

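Lipid droplets are the stores in which cells keep neutral fat, and the transcripts of 10 genes that coat, enlarge or empty them were followed in mouse lung. The set was defined by gene symbol: the 5 perilipins Plin1, Plin2, Plin3, Plin4 and Plin5, the droplet fusion gene Cidec, the lipases Pnpla2 and Lipe, the lipase coactivator Abhd5 and the lipase inhibitor G0s2. All 10 symbols were found, each on 1 of the 41388 rows of the count table, and all 10 passed the filter on low counts that left 18660 genes for testing. Lung RNA of adult C57BL/6J mice (WT) and of adult mice with the Zpbp2 tmZuk deletion in the same background (KO), which removes exons 1 to 3 of Zpbp2 with part of its promoter, was sequenced with 3 libraries per genotype. Every lung was taken at ZT7, that is 7 h after lights on, and WT mice came from the same colony as the KO mice. The RNA came from whole lung, so the cell type behind a transcript was not separated, and fewer cells of a type and less RNA per cell cannot be told apart.

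Perilipins sit on the surface of the droplet and control which lipases reach the fat inside. Pnpla2 (also called ATGL) removes the first fatty acid of a triglyceride, Lipe (hormone-sensitive lipase) acts on the diglyceride that is left, Abhd5 (CGI-58) activates Pnpla2 and G0s2 binds and inhibits it. In fat cells Plin1 holds Abhd5 away from Pnpla2 until a hormonal signal arrives, and Cidec fuses small droplets into large ones. In lung, droplets are known from lipofibroblasts and macrophages, where Plin2 is the usual coat, and white and brown fat lie close to the organ in the chest.

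The libraries held 59134950 to 71354388 counts, and a member had at least 235 and at most 16551 counts in a library. Zpbp2 itself had 20, 15 and 7 counts in WT1, WT2 and WT3 and 1, 0 and 0 counts in KO1, KO2 and KO3, the direction that the labels give. KO2 and KO3 differed by little more than counting noise, with a variance of 1.72 to 1.85 times the counting variance at every level of counts. Other pairs of a genotype had 1.67 to 2.94 times among genes with 10 to 100 counts and 6.54 to 16.3 times among genes with 1000 to 10000 counts. They were counted as 1 sample, so n = 3 for WT and n = 2 for KO, although the labels give them as different animals and the table alone cannot settle it. WT3 and KO1 stood apart from the other libraries. Genes of squamous epithelium, led by Krt4, Krt13 and Lor, summed to 4981 CPM (library counts scaled to 1000000) in WT3 and 9463 CPM in KO1, against 45.5 to 65.5 CPM elsewhere, and skeletal muscle genes, led by Acta1, Ckm and Tnnt3, to 3151 and 4683 CPM, against 33.9 to 102 CPM. Since WT3 and KO1 belong to different genotypes, results are also given without both. That comparison was chosen after seeing the data and sets 2 WT samples against a single KO sample, the sum of KO2 and KO3, which is assumed to vary like the WT samples.

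The coat genes Plin1 and Plin4 and the lipase gene Lipe were lower in KO lungs, and the inhibitor G0s2 was higher. Plin1, Plin4 and Lipe fell and G0s2 rose past an edgeR adjusted p of 0.05, which makes 4 of the 10 genes. Over all tested genes 2.28% were called, 0.906% lower and 1.38% higher in KO (257 of the 426 calls were higher, or 60.3%, and with library size alone as the scaling 38.2%). Cidec and Pnpla2 had lower estimates and missed the threshold narrowly, with adjusted p values of 0.0506 and 0.0532 in the edgeR fit. Plin5 had a lower and Plin3 a slightly higher estimate, and Plin2 and Abhd5 had overlapping genotypes. Every KO library lay below every WT library for 6 of the 10 genes and above for 2, where 20.7% and 20.0% of all tested genes did so (40.8% in either direction). When KO2 and KO3 were kept as separate samples, 8 of the 10 genes were called, 6 lower and 2 higher, among 18.9% of all genes, 9.07% lower and 9.81% higher. Before adjustment 8 of the 10 passed at 0.05 in edgeR, as did 27.3% of all tested genes, and DESeq2 called 8 of the 10 and 20.9% of all tested genes. The median log2 fold change was -0.57 over the 10 genes and 0.02 over all tested genes. Plin1, Plin4 and Cidec are also on the study's own list of changed genes from these libraries, so their direction is not independent evidence.

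**Figure D1:**
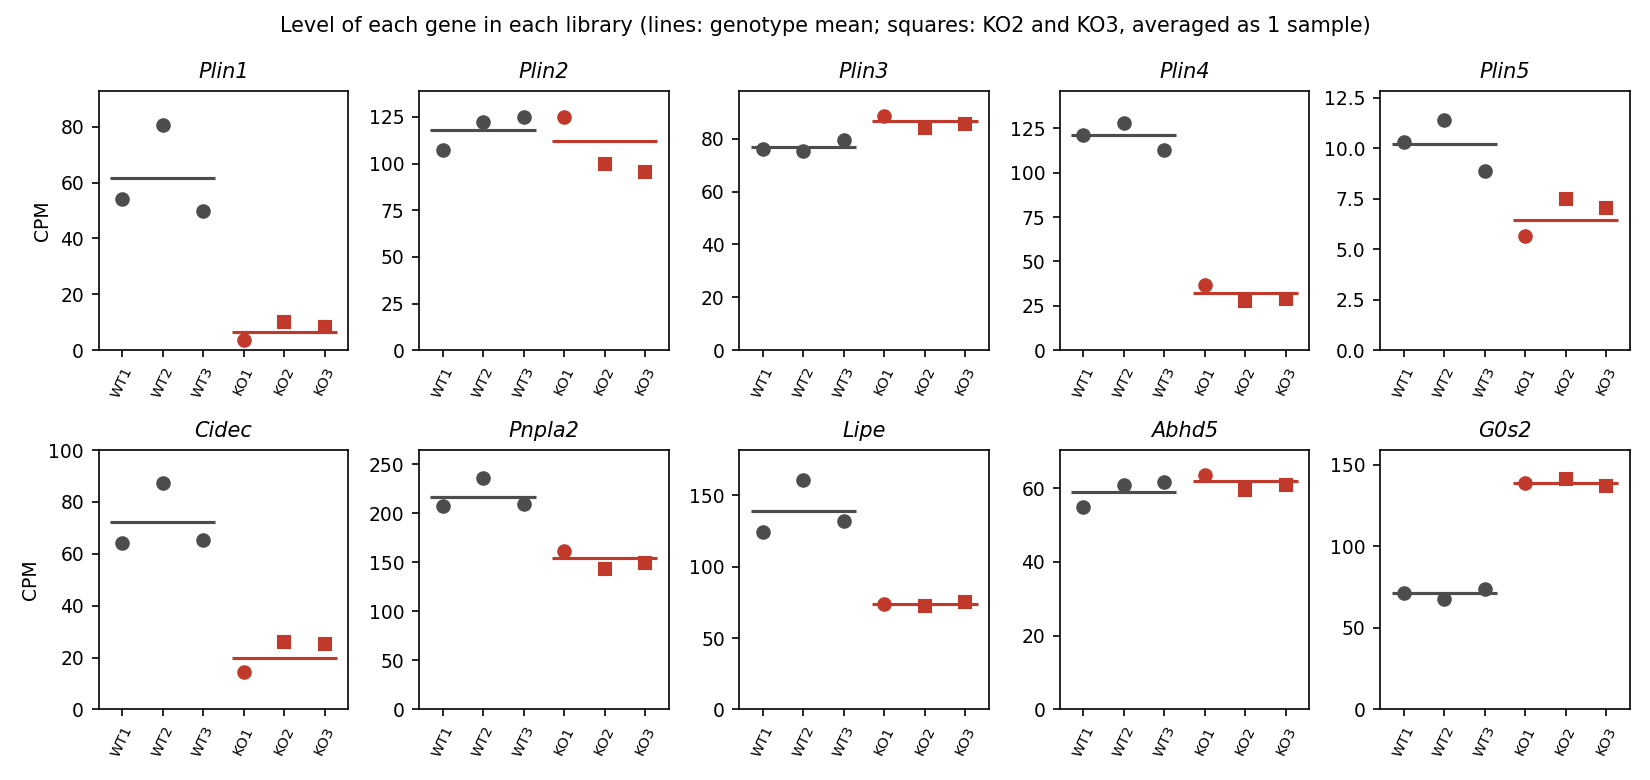
Level of each of the 10 genes in CPM (y axis, from 0) in each library (x axis), with a line at the genotype mean and squares for KO2 and KO3, which were averaged as 1 sample. Plin1, Plin4, Cidec, Lipe, Pnpla2 and Plin5 lie lower in every KO library than in any WT library, G0s2 and Plin3 lie higher, and Plin2 and Abhd5 overlap.

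Promoter sequences are shown for the 3 coat and fusion genes with the largest lower estimates, for G0s2 and for Abhd5, because these promoters differ widely in CG dinucleotides, the sites of DNA methylation. RefSeq gives 13 promoter entries of 300 bases (250 before the start and 50 after it, GRCm38.p6) for the 10 genes. The entries below are on chr7:79732727-79733026 (Plin1, minus strand), chr17:56109733-56110032 (Plin4, minus strand), chr6:113435711-113436010 (Cidec, minus strand), chr1:193273139-193273438 (G0s2, minus strand) and chr9:122351366-122351665 (Abhd5, plus strand), read 5′ to 3′ with CG in capitals.
Plin1: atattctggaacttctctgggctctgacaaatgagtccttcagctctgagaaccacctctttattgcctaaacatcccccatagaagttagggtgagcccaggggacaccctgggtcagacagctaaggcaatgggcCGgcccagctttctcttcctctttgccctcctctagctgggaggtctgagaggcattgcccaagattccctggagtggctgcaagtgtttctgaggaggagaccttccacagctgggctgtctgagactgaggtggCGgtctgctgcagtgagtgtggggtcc
Plin4: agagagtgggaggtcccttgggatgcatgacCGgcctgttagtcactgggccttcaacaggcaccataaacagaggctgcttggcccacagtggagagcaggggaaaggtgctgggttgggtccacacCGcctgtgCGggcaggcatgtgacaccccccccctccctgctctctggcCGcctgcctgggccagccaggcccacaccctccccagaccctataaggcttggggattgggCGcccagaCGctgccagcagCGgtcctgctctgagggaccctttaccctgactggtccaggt
Cidec: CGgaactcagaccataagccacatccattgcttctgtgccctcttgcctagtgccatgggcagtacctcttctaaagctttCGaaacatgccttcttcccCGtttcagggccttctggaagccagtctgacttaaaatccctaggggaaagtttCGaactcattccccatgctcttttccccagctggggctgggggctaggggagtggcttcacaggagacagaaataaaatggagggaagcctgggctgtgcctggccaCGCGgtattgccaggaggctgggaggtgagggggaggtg
G0s2: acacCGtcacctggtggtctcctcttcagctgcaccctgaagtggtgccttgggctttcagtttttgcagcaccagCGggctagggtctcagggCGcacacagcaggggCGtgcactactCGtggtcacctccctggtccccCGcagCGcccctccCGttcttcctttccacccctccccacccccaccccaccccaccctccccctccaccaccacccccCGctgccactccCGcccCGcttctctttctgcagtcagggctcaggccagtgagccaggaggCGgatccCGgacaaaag
Abhd5: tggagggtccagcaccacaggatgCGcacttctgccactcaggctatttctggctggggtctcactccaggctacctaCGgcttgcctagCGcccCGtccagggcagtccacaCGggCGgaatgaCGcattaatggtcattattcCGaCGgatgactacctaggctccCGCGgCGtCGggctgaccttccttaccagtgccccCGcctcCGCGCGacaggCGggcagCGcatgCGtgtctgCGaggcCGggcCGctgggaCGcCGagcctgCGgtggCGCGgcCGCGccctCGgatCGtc

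The Plin1 promoter held 2 CG dinucleotides, Plin4 7, the entries of Cidec 6 and 7, G0s2 13 and Abhd5 32, while the median over 32851 promoters of this length was 7. The entries of Lipe held 19 and 2, Pnpla2 18, both entries of Plin5 16, Plin2 10 and Plin3 9. High and low counts were thus both found among the genes with lower estimates. The direct repeat that PPAR receptors are known to bind, AGGNCA given 2 times with 1 base between, was searched on both strands like the motifs below and was in none of the 13 entries, as in all but 0.381% of the promoters. The single repeat unit AGGTCA, which can lie inside that motif, was in entries of Plin2, Plin5 and Abhd5 (16.3% of all promoters), and the E-box CACGTG, which the clock proteins can bind, was in those of Plin2 and Lipe (7.15%). CCAAT was in entries of Plin2, Plin3, Plin4 and Plin5 (37.4%), and TATAAA was in none of them (13.6%). These matches describe the letters of short windows only.

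Plin1, the perilipin of fat cells, had the largest difference. It was at 54.2, 80.7 and 50.0 CPM in WT1, WT2 and WT3 and at 3.73, 10.2 and 8.39 CPM in KO1, KO2 and KO3. All KO libraries were far below all WT libraries, and within WT the level in WT2 stood above the other two. Plin1 (chromosome 7, 79720218 to 79732903 of GRCm38, minus strand) fell to 10.7% of WT, a log2 fold change of -3.22 (SE 0.49, edgeR adjusted p 0.0496). Without WT3 and KO1 the log2 fold change was -2.86 and without KO1 alone -2.73.

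Plin4, which coats newly forming droplets in fat cells and is also known from muscle, was the perilipin with the most uniform fall. It was at 121, 128 and 113 CPM in WT and at 36.8, 27.5 and 28.6 CPM in KO, so that the spread within a genotype was small beside the gap. Plin4 (chromosome 17, 56100591 to 56109803, minus strand) went to 26.9% of WT with a log2 fold change of -1.89 (SE 0.13, edgeR adjusted p 0.0446). The log2 fold change was -2.15 without WT3 and KO1. In contrast to Plin1, Plin4 was highest in KO1 among the KO libraries. It shares 17 bp with Hdgfl2 on the other strand, whose estimate was in the opposite direction (0.28, adjusted p 0.0836 in edgeR).

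Plin5, a coat of oxidative tissues such as heart and brown fat that binds both Pnpla2 and Abhd5, lies on the same strand as Plin4, with its 3′ end 1.80 kb before the start of Plin4. Its levels were low, at 10.3, 11.4 and 8.89 CPM in WT and 5.65, 7.49 and 7.06 CPM in KO. The genotypes did not overlap, but the log2 fold change of -0.65 (SE 0.17) did not pass the edgeR test (adjusted p 0.0956). Leaving out WT3 and KO1 gave a log2 fold change of -0.57. Plin5 and Plin4 are neighbours, and their KO levels were 0.638 and 0.269 of WT.

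Plin3, a coat that moves from the cytosol onto new droplets in most cell types, lies 160 kb from Plin5. It was at 76.0, 75.3 and 79.3 CPM in WT and 88.6, 84.1 and 85.7 CPM in KO. All KO libraries were a little above all WT libraries, by 0.18 on the log2 scale (SE 0.05), which edgeR did not call (adjusted p 0.0965). Leaving out WT3 and KO1 gave 0.16. So among the 3 perilipins of this stretch of chromosome 17, Plin4 fell, Plin5 had a lower and Plin3 a higher estimate.

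Plin2, the coat found on droplets of most cells and the common one in lung, was at 107, 122 and 125 CPM in WT and 125, 100 and 95.7 CPM in KO. The genotypes overlapped, since KO1 equalled the highest WT library. The log2 fold change was -0.08 (SE 0.13, edgeR adjusted p 0.740), and without WT3 and KO1 it was -0.23 (adjusted p 0.189). The ratio of Plin1 to Plin2 within a library was 0.509, 0.660 and 0.399 in WT and 0.0298, 0.102 and 0.0877 in KO, a 9.65-fold lower ratio. On the log2 scale this difference was -3.27, and -2.44 without KO1. With 3 samples against 2 the smallest p of a two-sided exact permutation test is 0.200, and this ratio reached it.

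Because levels of different genes can be compared only per length, CPM was divided by the exon length of each gene in kb. The 5 perilipins together summed to 88.0, 99.6 and 91.2 CPM per kb in WT and 68.9, 61.3 and 60.0 CPM per kb in KO. Plin1 and Plin4 made up 37.1%, 39.6% and 33.3% of this sum in WT and 10.4%, 11.3% and 11.2% in KO. The share of Plin2 and Plin3 was 58.1% ± 3.62 (SD, n = 3) in WT and 84.3% ± 1.91 (SD, n = 2) in KO. The 2 broadly expressed coats therefore made up most of the perilipin level in both genotypes, with the larger share in KO. The share of Plin5 overlapped between genotypes, at 4.67% to 5.61% in WT and 3.93% to 5.86% in KO.

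**Figure D2:**
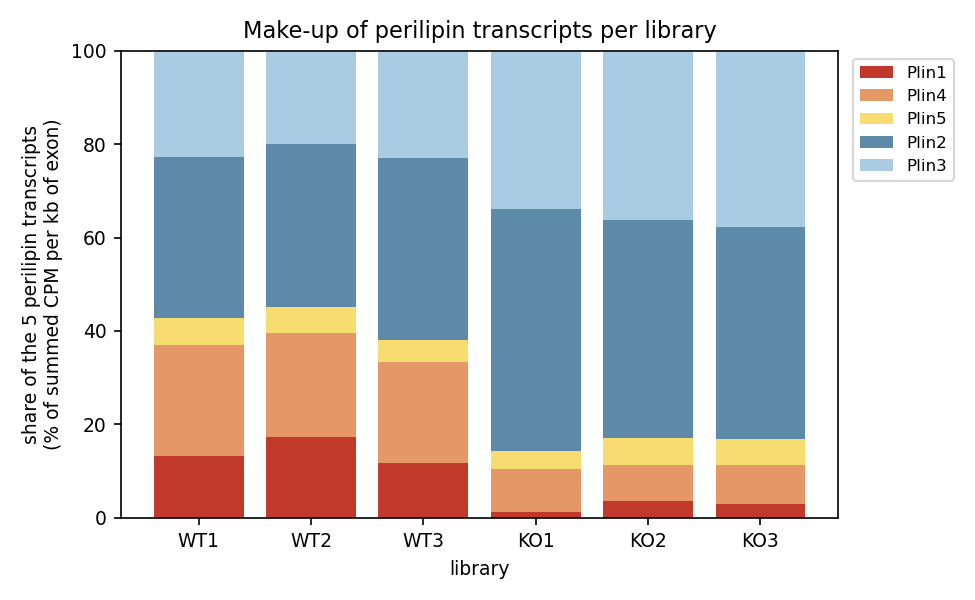
Share of each perilipin in the summed perilipin level (y axis, % of CPM per kb of exon) in each library (x axis). The fat cell coats Plin1 and Plin4 take 33.3% to 39.6% of a WT bar and 10.4% to 11.3% of a KO bar.

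Cidec fuses droplets into the single large droplet of white fat cells. It was at 64.2, 87.4 and 65.4 CPM in WT and 14.5, 25.9 and 25.2 CPM in KO. As with Plin1, WT2 was the highest WT library and KO1 the lowest KO library. Its estimate on the log2 scale, -1.84 (SE 0.30), narrowly missed the edgeR threshold (adjusted p 0.0506). It passed in 6 of the 15 alternatives, and over all of them the adjusted p ran from 5.24e-10 (DESeq2) to 0.189 (edgeR without WT2). Without WT3 and KO1 the estimate was -1.57. The ratio of Cidec to Plin1 was 1.08 to 1.31 in WT and 2.55 to 3.89 in KO, so it was higher in every KO library (exact permutation p 0.200, the smallest possible).

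Of the lipases, Lipe (chromosome 7, 25379527 to 25398710, minus strand) was at 124, 161 and 132 CPM in WT and 74.0, 72.3 and 75.1 CPM in KO. The KO libraries were nearly identical, and WT2 was again the highest. Lipe fell to 53.3% of WT, a log2 fold change of -0.91 (SE 0.12, edgeR adjusted p 0.0450). Leaving out WT3 and KO1 gave -0.95. The antisense gene 4732471J01Rik covers the whole of Lipe on the other strand, and had 13 to 30 counts in a library, against 4383 or more for Lipe.

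Pnpla2, the rate-limiting lipase of triglyceride stores, was the most abundant of the 10 genes by counts. It was at 207, 236 and 209 CPM in WT and 162, 143 and 149 CPM in KO. No KO library reached the WT range, and the log2 fold change was -0.49 (SE 0.08, edgeR adjusted p 0.0532). It passed in 5 of the 15 alternatives, with adjusted p values from 6.51e-06 (DESeq2) to 0.189 (edgeR without WT2), and without WT3 and KO1 the estimate was -0.60.

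Abhd5, the coactivator of Pnpla2, was at 55.0, 60.8 and 61.6 CPM in WT and 63.6, 59.5 and 61.0 CPM in KO. The genotypes overlapped, with a log2 fold change of 0.07 (SE 0.07, edgeR adjusted p 0.541), and Abhd5 passed in 0 of the 15 alternatives, DESeq2 included (unadjusted p 0.327 in edgeR). Leaving out WT3 and KO1 gave a log2 fold change of 0.05. An antisense gene at the start of Abhd5, A730085K08Rik, had at most 4 counts in a library.

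G0s2 (chromosome 1, 193272161 to 193273217, minus strand), the inhibitor of Pnpla2, went the other way. It was at 71.5, 67.9 and 74.0 CPM in WT and 139, 141 and 137 CPM in KO. Libraries within a genotype differed little, and the lowest KO library was well above the highest WT library. G0s2 rose 1.96-fold, a log2 fold change of 0.97 (SE 0.05, edgeR adjusted p 0.0268), and was 6th by p among the 18660 genes. Without WT3 and KO1 the log2 fold change was 0.99. G0s2 lies within the span of Lamb3 on the other strand with 0 bp of shared exon, and whether counting used the strand is not given in the sources used here. Lamb3 was at 123 to 138 CPM in WT and 143 to 152 CPM in KO (log2 fold change 0.19, edgeR adjusted p 0.156).

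The balance of inhibitor, coactivator and lipase was compared as a ratio within each library. G0s2 to Pnpla2 was 0.346, 0.288 and 0.354 in WT and 0.859, 0.982 and 0.917 in KO, which is 2.75-fold higher. Abhd5 to Pnpla2 was 0.258 to 0.295 in WT and 0.392 to 0.416 in KO, which is 1.47-fold higher. Both ratios were higher in every KO library, and both had an exact permutation p of 0.200, the smallest this design allows. Per length, G0s2 and Pnpla2 were close in WT, at 81.7 ± 3.54 and 71.9 ± 5.34 CPM per kb (SD, n = 3), and in WT2 both were at 78.0. In KO they were apart, at 160 ± 0.541 and 51.0 ± 3.73 CPM per kb (SD, n = 2). In all, 5 ratios were compared. Each had the raw p of 0.200, which is also their Benjamini-Hochberg adjusted value.

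**Figure D3:**
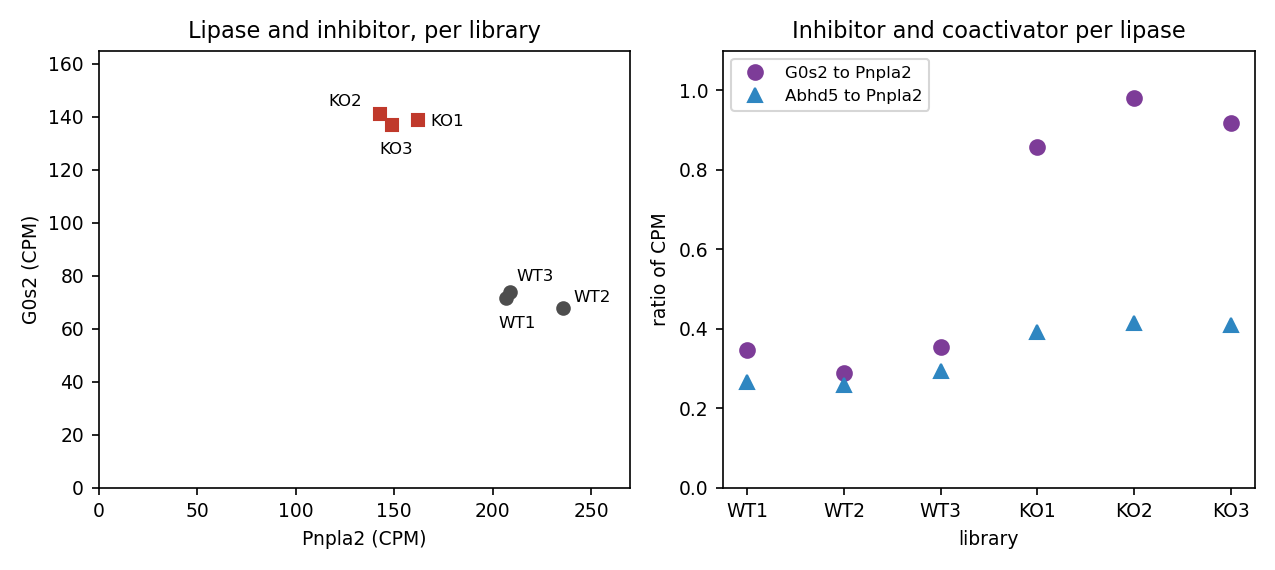
Left, CPM of G0s2 (y axis) against CPM of Pnpla2 (x axis), with 1 point per library. Right, the ratio of G0s2 or Abhd5 to Pnpla2 (y axis) in each library (x axis). The G0s2 ratio is 0.288 to 0.354 in WT and 0.859 to 0.982 in KO.

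By level per length, G0s2 and Pnpla2 were the highest of the 10 genes in both genotypes. Cidec came next in WT at 39.0 ± 7.02 CPM per kb (SD, n = 3), followed by Plin2 at 33.6 ± 2.86, and these neighbours overlapped. Lipe, Plin4 and Plin3 formed a close group at 23.6, 20.9 and 20.3 CPM per kb that did not differ beyond their spread. Plin1, Abhd5 and Plin5 were lowest, at 13.3, 9.93 and 4.88 CPM per kb. In KO, Plin2 and Plin3 moved up to places 3 and 4 at 31.8 and 22.9 CPM per kb, Cidec was at place 6 with 10.8 CPM per kb and Plin1 at place 10 at 1.40 CPM per kb.

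**Figure D4:**
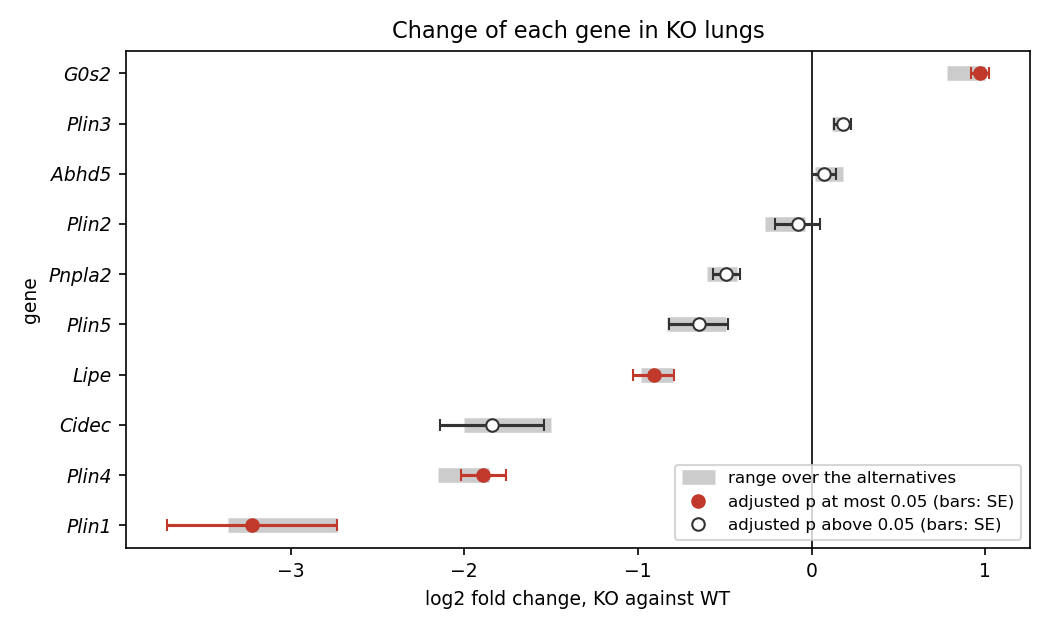
Log2 fold change of KO against WT (x axis) for each gene (y axis), with the standard error as bars, filled red points for an adjusted p of at most 0.05 and open points for the others, and grey bands for the range over the 15 alternatives. No band crosses 0, and the estimates run from -3.22 for Plin1 to 0.97 for G0s2.

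The calls of Plin1, Plin4, Lipe and G0s2 were lost when any 1 of the 3 WT libraries was left out and both KO samples were kept. Without WT1, WT2 or WT3 in turn, their edgeR adjusted p values were between 0.121 and 0.189 and 0 genes were called among all genes (3346 to 4193 at an unadjusted p of at most 0.05), although the estimates stayed at -3.36 to -3.0 for Plin1, -1.94 to -1.86 for Plin4, -0.98 to -0.80 for Lipe and 0.93 to 1.0 for G0s2. Without KO1, Plin4 alone kept its call, and without KO3 the adjusted p of Plin1 was 0.0511. With library size alone as the scaling it was 0.0519, and Plin1 passed in 8 of the 15 alternatives, Plin4 in 11, and Lipe and G0s2 in 10 each. An offset fitted per library on the length and GC content of genes also left 0 of the 4 calls, with adjusted p values of 0.0699 to 0.0878 in edgeR, while the estimates were -3.25 for Plin1, -1.88 for Plin4, -0.89 for Lipe and 0.78 for G0s2.

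Genes of fat cells were read beside Plin1, Plin4 and Lipe. Of 20 white fat cell genes, none of them among the 10, 19 were lower in every KO library than in every WT library (20.7% of all genes), and 8 fell past the edgeR threshold, where 0.906% of all genes did (Aqp7, Lpl, Pck1, Acsl1, Tusc5, Nnat, Aoc3 and Sncg, with log2 fold changes from -3.87 for Pck1 to -0.82 for Acsl1). The abundant Car3 and Cfd had estimates of -1.61 and -1.41 and were not called (adjusted p 0.0751 and 0.180 in edgeR). The summed level of the 20 genes was 1996 to 2640 CPM in WT and 804 to 874 CPM in KO, and their median log2 fold change was -1.61. No marker was at 0 in all libraries. Every library held 18 of the 20 at 1 CPM or more, 4 of the 20 stand in another list as well, and 9 were already on the published list of changed genes. Adiponectin (Adipoq), the hormone of fat cells, was at 73.4, 99.1 and 69.4 CPM in WT and 6.27, 17.8 and 21.7 CPM in KO, with WT2 highest and KO1 lowest as for Plin1 and Cidec. The ratio of Plin1 to Adipoq was 0.721 to 0.814 in WT and 0.387 to 0.595 in KO (exact permutation p 0.200, the smallest possible). The part of fat cell content in the lower levels of Plin1, Plin4, Cidec, Lipe and Pnpla2 was not tested.

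Brown fat and heart muscle genes, which share Plin5, Pnpla2 and Lipe with fat, were also lower by their sums. The 8 brown fat genes summed to 81.8 to 277 CPM in WT and 28.4 to 47.9 CPM in KO, and 1 of them, Ppara, fell past the edgeR threshold as did 0.906% of all genes (7 had an unadjusted p of at most 0.05, as did 27.3% of all genes). For 7 of the 8 brown fat genes every KO library lay below every WT library and for 0 above (20.7% and 20.0% of all genes). Of the 8, 1 gene, Ucp1, was already on the published list of changed genes. Ucp1, the uncoupling protein that defines brown fat, varied widely within WT, at 49.5, 132 and 6.27 CPM, and was at 0.0952 to 0.137 CPM in KO. Cox7a1 and Cox8b, respiratory chain subunits abundant in brown fat and muscle, had log2 fold changes of -1.13 and -1.22 and were not called. Of 12 cardiomyocyte genes 0 were called in edgeR, 8 had an unadjusted p of at most 0.05 (27.3% of all genes) and 6 were called by DESeq2 (20.9% of all genes). Every KO library lay below every WT library for 10 of the 12 and above for 0, where 20.7% and 20.0% of all genes did so. Of the 12, 4 were already on the published list of changed genes. The 12 genes summed to 2685 to 7506 CPM in WT and 1388 to 1629 CPM in KO. The most abundant, the sarcomere genes Myh6, Actc1 and Tnnt2, had log2 fold changes of -1.88, -0.82 and -1.24, and none of them was called. The part of either tissue in the values of Plin5, Pnpla2 and Lipe was not tested.

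Genes of lung cells were read beside the fat cell genes. Of 10 lipofibroblast genes 0 were called in edgeR (3 passed before adjustment at 0.05 and DESeq2 called 3, against 27.3% and 20.9% of all genes), with a median log2 fold change of -0.03. Their most abundant members Inmt, Macf1 and Limch1 had log2 fold changes of 0.10, -0.45 and -0.27. Of 10 alveolar macrophage genes Mrc1 alone fell past the edgeR threshold (-0.56, with 0.906% of all genes called lower), and the median was -0.06. The abundant Car4 and Chil3 had log2 fold changes of 0.36 and -0.25 and were not called (adjusted p 0.0926 and 0.329). Alveolar type 2 genes, among them the surfactant genes Sftpc, Sftpb, Sftpa1 and Sftpd, which rose (1.38% of all genes did), were higher in every KO library for 9 of 10, against 20.0% of all genes, and summed to 22189 to 23212 CPM in WT and 31470 to 33174 CPM in KO. They moved in the same direction as G0s2, and their part in its rise was not tested.

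**Figure D5:**
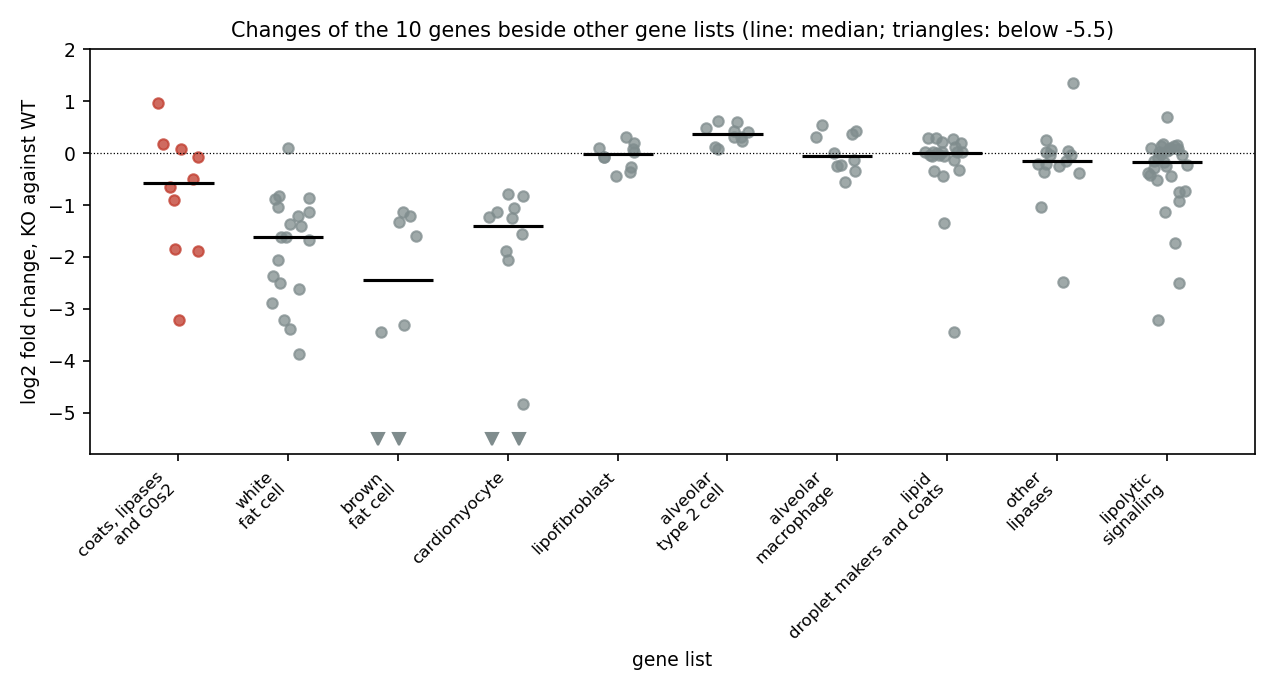
Log2 fold change of KO against WT (y axis) for each tested gene of the 10 genes and of 9 other lists (x axis), with a line at the median and triangles for values below the axis. The median is -0.57 for the 10 genes, -1.61 for white fat cell genes, -0.03 for lipofibroblast genes and 0.36 for alveolar type 2 genes.

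Other genes of droplet formation and lipolysis were read from 3 lists. Of 22 tested makers and coats of droplets 0 were called in edgeR (7 passed before adjustment at 0.05, where 27.3% of all genes did, and DESeq2 called 7, where it called 20.9% of all genes), with a median log2 fold change of 0.01. The abundant Cav1, Ptrf and Mettl7a1, which code for caveola proteins and a droplet protein, had log2 fold changes of -0.04, 0.27 and 0.02. Cidea, the brown fat relative of Cidec, was at 22.6, 46.3 and 7.99 CPM in WT and 2.33 to 2.37 CPM in KO (adjusted p 0.0775 in edgeR), and Cideb, the liver relative, was at 1.53 to 1.57 CPM in WT and 1.85 to 1.92 CPM in KO (adjusted p 0.245). Cidea thus spanned a wide range within WT, and Cideb was at low levels in all libraries.

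Of 15 other lipases 3 fell and 0 rose in edgeR, where 0.906% and 1.38% of all genes did. Before adjustment 6 passed at 0.05 and DESeq2 called 6, against 27.3% and 20.9% of all genes. Pnpla3, a relative of Pnpla2 that acts on droplet lipids, was at 26.1 to 48.0 CPM in WT and 5.89 to 6.62 CPM in KO, which on the log2 scale is -2.48 (adjusted p 0.0446). Lpl, the lipase that frees fatty acids from lipoproteins in the capillaries, was at 364 to 367 CPM in WT and 175 to 178 CPM in KO (-1.04, SE 0.05, adjusted p 0.0251). Lipa, the acid lipase of lysosomes, fell by 0.38 on the log2 scale (adjusted p 0.0474). Mgll, which completes the breakdown that Pnpla2 and Lipe begin, was at 163 to 172 CPM in WT and 121 to 141 CPM in KO but was not called (-0.36, adjusted p 0.0659), and Ces1d, the most abundant of the list, was not called either (0.26, adjusted p 0.133).

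Of 30 genes of lipolytic signalling and the carriers of its products Adcy9 and Aqp7 fell and 0 rose in edgeR (0.906% and 1.38% of all genes). Before adjustment 13 passed at 0.05 (27.3% of all genes did) and DESeq2 called 14 (20.9% of all genes). Every KO library was below every WT library for 16 of the 30 and above for 1, where 20.7% and 20.0% of all genes were, and the median log2 fold change was -0.17. Aqp7, the channel by which glycerol leaves fat cells, was at 5.32 to 8.51 CPM in WT and 0.651 to 0.854 CPM in KO (-3.22 on the log2 scale, adjusted p 0.0446). Adcy9, an adenylate cyclase, fell by 0.51 on the log2 scale (adjusted p 0.0474). Adrb3, the beta-adrenergic receptor of fat cells, was at 32.9 to 56.3 CPM in WT and 17.6 to 19.9 CPM in KO but was not called (adjusted p 0.0806). Adrb1 overlapped between the genotypes, as did Prkaca, the kinase that phosphorylates Plin1 and Lipe, and the abundant Gnas and Gnai2. Prkar1a, the other abundant gene of this list, differed by 0.07 on the log2 scale (adjusted p 0.473).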

How the data were processed

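The series holds 6 lung libraries, 3 labelled WT and 3 KO. The deposited table holds raw counts of reads per gene; the authors trimmed and filtered the reads, aligned them to GRCm38 (mm10) with STAR and counted them with HTSeq-count in GenPipes. The submitters' processing notes list Trimmomatic 0.36, STAR 2.5.3a, Picard 2.9.0 and HTSeq 0.6.0, while the annotation release and the strand setting are not given in the sources used here. The sum of KO2 and KO3 was used as 1 sample. In R 4.3.3 with edgeR 4.0.16, genes were filtered with filterByExpr, libraries scaled with TMM factors and KO compared with WT by the quasi-likelihood test, with Benjamini-Hochberg adjusted p values over 18660 genes and a threshold of 0.05. The SE was taken from the F statistic. The script was tested on simulated data. Ratios were compared by two-sided exact permutation tests. Gene positions and exon lengths came from GENCODE M21, which holds 97.5% of the gene identifiers, and promoters from RefSeq.

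Alternatives were library size alone, DESeq2 size factors, no filter, at least 10 counts in every library, DESeq2 1.42.0, the 6 libraries kept separate, these with a replicate block, each library left out, and an offset for gene length and GC content. Leaving out WT3 and KO1 together was chosen after seeing the data. The 10 genes and all lists were chosen with earlier results of these data known. On the study's own list stood 1 gene each of the droplet makers and coats, the other lipases, the lipolytic signalling genes and the hepatocyte genes. Genes of a list were named if called or among its 3 with most counts, and Adipoq, Ucp1, Cidea, Dgat2, Fitm1, Cideb, Adrb1, Adrb3 and Prkaca were named after their values were seen, as were the genes that overlap a member. The depth speaks for counting error only.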

Additional observations from a re-analysis of the deposited data

How the results depend on the processing

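None of the 10 genes changed direction in any of the 15 alternatives. The number of called genes, 426 with 4 members among them, was 937 after a minimum of 10 counts per library, 3908 by DESeq2 (8 members), 3402 with the 6 libraries kept separate (8 members), 2256 without WT3 and KO1 (7 members) and 0 with the length and GC offset (0 members, against 4057 genes and 8 members before adjustment, and a median of -0.71 over the members). The minimum of 10 counts left 16919 genes to adjust over, where the main fit had 18660, and keeping the libraries separate treats KO2 and KO3 as independent. The cause of these shifts in the number of called genes was not tested. With 1 library left out it was 0 to 418 genes and 0 to 4 members, with 0 genes without any WT library, 17 without KO1 and 355 and 418 without KO2 and KO3; without KO1, alone or with WT3, the summed pair is assumed to vary like the WT samples. Fold changes fell with gene length across genes (Spearman rho -0.334), which are not independent replicates.

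The deviations of libraries with the same replicate number had correlations of -0.656, 0.755 and -0.821. Each genotype was centred on its own mean, and WT3 and KO1, which stood apart from the other libraries, had 0.853. These correlations therefore cannot decide whether the replicate numbers pair the animals. With the replicate block on the 6 libraries 1157 genes and 6 members were called.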

Other observations

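Within KO the members split by library. Plin1, Cidec and Plin5 were lower in KO1 than in KO2 and KO3, whereas Plin4, Plin2 and Pnpla2 were higher in KO1, and Lipe and G0s2 differed little. Dgat2, which makes the triglyceride that droplets store, was at 61.3 CPM in KO1, 27.2 CPM in KO2 and 27.7 CPM in KO3, against 90.4 to 129 CPM in WT (edgeR adjusted p 0.102). Fitm1, a droplet formation gene of muscle, was at 5.83, 3.47 and 6.97 CPM in WT1, WT2 and WT3, at 7.36 CPM in KO1 and at 1.29 and 1.39 CPM in KO2 and KO3.

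By the pattern of log2 levels over the 6 libraries, the genes most like Plin1 outside the set were Gigyf2, Dock10, Utrn, Lpgat1 and Ash1l (Pearson r 0.998 to 0.999), but Gigyf2 ranged only from 63.5 to 75.6 CPM, and 749 genes had r above 0.95. Those most like Plin2 were Gm7964, Impa2, Enpp2, Apba1 and Sav1 (0.983 to 0.988), and 63 genes had r above 0.95. Those most like Plin3 were Otub1, Cblc, Hprt, Npm3 and Chil1 (0.995 to 0.998), and 623 genes had r above 0.95. These are descriptions over 6 libraries, of which KO2 and KO3 count as 1 sample.

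Hepatocyte genes, which are no part of lipid storage in lung, included Alb at 0.967 to 1.27 CPM in WT, 3.06 CPM in KO1 and 25.0 CPM in KO3, with KO2 close to KO3 (edgeR adjusted p 0.0753), while Hp and Trf had log2 fold changes of 0.52 and 0.24 and were not called, so the KO libraries were also unlike each other outside fat genes.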
